A study of Mus musculus with 4 samples.

Results

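The genes described here are 10 genes that answer cyclic AMP (cAMP) or hold it in check, chosen by name as the cAMP feedback and NR4A genes. All 10 were among the 15835 genes of the count table. They comprise 7 brakes on cAMP signalling (Crem, Pde4a, Pde4b, Pde4d, Pde3b, Sik1 and Rgs2) and the 3 NR4A nuclear receptors (Nr4a1, Nr4a2 and Nr4a3). The cells were group 2 innate lymphoid cells (ILC2), lymphocytes that live in tissues and secrete type 2 cytokines, isolated from Langerhans islets of the pancreas; the mice, of genotype C57BL/6j, were either fed or fasted. Each group as used here held 4 libraries, numbered 1, 3, 4 and 5 in the table's column names. The columns named control were taken as the fed group. The control and fasting columns numbered 2 were not used. The length of the fast, and the age and sex of the mice, are not given in the sources used here, nor is whether each library is a mouse of its own. P-values therefore speak of the spread between libraries, which may be technical. Libraries were made with CEL-seq2, which reads the 3' ends of polyadenylated transcripts, so isoforms of a gene that share a 3' end were counted together.

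Cyclic AMP is made by adenylyl cyclases when receptors coupled to the G protein Gs, such as the beta2-adrenergic and prostaglandin E receptors, are engaged, and it activates protein kinase A. Protein kinase A phosphorylates the transcription factor CREB, and CREB in turn switches on genes that damp the pathway. Among these are Crem, whose short product ICER competes with CREB for its binding sites, the phosphodiesterases, which degrade cAMP, and Sik1, a kinase that keeps CREB coactivators out of the nucleus. The NR4A receptors are immediate early transcription factors without a known natural ligand that are induced by cAMP and also by calcium and antigen or cytokine signals. In ILC2, adrenergic signals acting through cAMP restrain proliferation and cytokine output.

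CREB binds the palindrome TGACGTCA, the cAMP response element, and its 5-base core TGACG. Upstream windows are shown for the NR4A genes because these carry the same core. Their fed and fasted levels are given below, and the genes were not tested against each other. The windows were taken from RefSeq on GRCm38.p6, the build also called mm10, and reach up to 250 bases before the annotated start. For Nr4a3 only the first 98 bases are shown, since the rest overlaps an exon of the GENCODE annotation. The windows lie at chr15:101266596-101266845 on the plus strand for Nr4a1, at chr2:57124004-57124253 on the minus strand for Nr4a2 and at chr4:48045055-48045152 on the plus strand for Nr4a3. They are written 5' to 3' on the gene's strand, with each match to TGACG on either strand (CGTCA on the opposite one) in capitals.
Nr4a1: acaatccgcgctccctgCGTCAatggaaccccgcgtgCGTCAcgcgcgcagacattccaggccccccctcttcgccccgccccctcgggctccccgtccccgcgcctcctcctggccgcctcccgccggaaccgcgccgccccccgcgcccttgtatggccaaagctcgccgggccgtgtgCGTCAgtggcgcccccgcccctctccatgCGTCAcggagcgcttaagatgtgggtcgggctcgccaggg
Nr4a2: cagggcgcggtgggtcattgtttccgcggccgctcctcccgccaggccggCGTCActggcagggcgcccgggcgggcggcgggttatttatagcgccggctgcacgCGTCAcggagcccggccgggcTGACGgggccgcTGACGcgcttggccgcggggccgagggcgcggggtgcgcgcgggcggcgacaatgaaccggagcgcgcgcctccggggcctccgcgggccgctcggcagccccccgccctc
Nr4a3: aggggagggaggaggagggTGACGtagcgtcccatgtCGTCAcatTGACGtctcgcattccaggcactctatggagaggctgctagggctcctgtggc

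Each of the 3 NR4A windows of 250 bases held 4 matches to TGACG. In Nr4a1 the matches began 233, 213, 69 and 40 bases before the start. In Nr4a2 they began at 200, 144, 123 and 111 bases, and in Nr4a3 at 231, 213, 205 and 147 bases, the last of these in the stretch that is not shown. Of 32851 windows of this length in the RefSeq table, 17.8% held at least 1 match and 0.137%, or 45 windows, held at least 4, a number taken after the matches had been seen. The full palindrome TGACGTCA was in none of the windows searched for the members and in 1.55% of all windows. The NR4A binding motif AAAGGTCA was in none of them either, and in 1.34% of all windows. Windows were searched for 7 members, 12 windows in all. Crem, Sik1 and Pde3b were not among these members, so nothing is said of their windows. Rgs2 had 2 matches to TGACG, 185 and 67 bases before its start. Of 4 alternative starts of Pde4b 1 had a single match, as did 1 of 3 starts of Pde4a, and the start of Pde4d had none. The Pde4b match, 34 bases before its start, lies in the last 37 bases of its window, which overlap a GENCODE exon. A match describes the letters of the window and not binding. In the GENCODE annotation of the same build the Nr4a1 window lies inside the gene (chr15:101254269-101274795) but in no exon, since longer transcripts start upstream of it. Sik1 lies at chr17:31844250-31855804 and Rgs2 at chr1:143999338-144004161, both on the minus strand. Pde4a, Pde4b, Pde4d and Pde3b lie on the plus strand at chr9:21165714-21213248, chr4:102087543-102607259, chr13:108449948-109953461 and chr7:114415281-114539251.

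Between 1797504 and 25252366 counts were assigned to genes in each library. Levels are CPM, counts per 1000000 counts of a library size scaled by its TMM factor, and these factors ran from 0.54 to 2.11. Fold changes are fasted minus fed on the log2 scale with their standard error (SE), from edgeR's quasi-likelihood test with Benjamini-Hochberg adjustment over 7700 genes. Gata3, which defines the ILC2 lineage, ran from 170 to 346 CPM among the fed and from 180 to 254 CPM among the fasted libraries. The IL-33 receptor gene Il1rl1 ran from 98.3 to 217 and from 114 to 255 CPM. Rora, another ILC2 identity gene, stood at 4 counts in fed library 1 and at 1 count or fewer in each other library. The libraries also carried RNA of acinar cells, the exocrine cells around the islets. Of 17 listed acinar marker genes 16 were in the count table. These took 26.7% to 48.0% of counts in fed libraries, and 45.1% and 47.4% with fasting in those numbered 4 and 5. Fasted libraries 1 and 3 were at 2.10% and 2.35%. Acinar genes outside the list are not in these shares, so all acinar RNA may take more. Fewer cells of a type and less RNA per cell cannot be told apart in these samples.

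None of the members passed the adjusted threshold. Crem was at a 2.58-fold higher fitted level in the fasted libraries and Nr4a1 at a 1.54-fold higher one, while Rgs2, Pde4b, Pde3b and Nr4a2 had log2 fold changes between -0.16 and 0.16. Of the 10 members 8 had enough counts to be tested, and of these 0 were called at an adjusted p under 0.05, as were 0.0% of all tested genes. At an unadjusted p under 0.05 there were 2 members, Crem and Nr4a1, against 4.39% of all tested genes (338 of 7700). Fasted and fed libraries did not overlap, with fasted higher, for 1 of the 8 tested members, Crem, against 2.21% of all tested genes. The 8 members had a median log2 fold change of 0.15, with 6 positive and 2 negative, against a median of 0.00 over all tested genes, of which 49.8% were positive. Pde4d and Nr4a3 did not pass the filter on low counts.

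**Figure D1:**
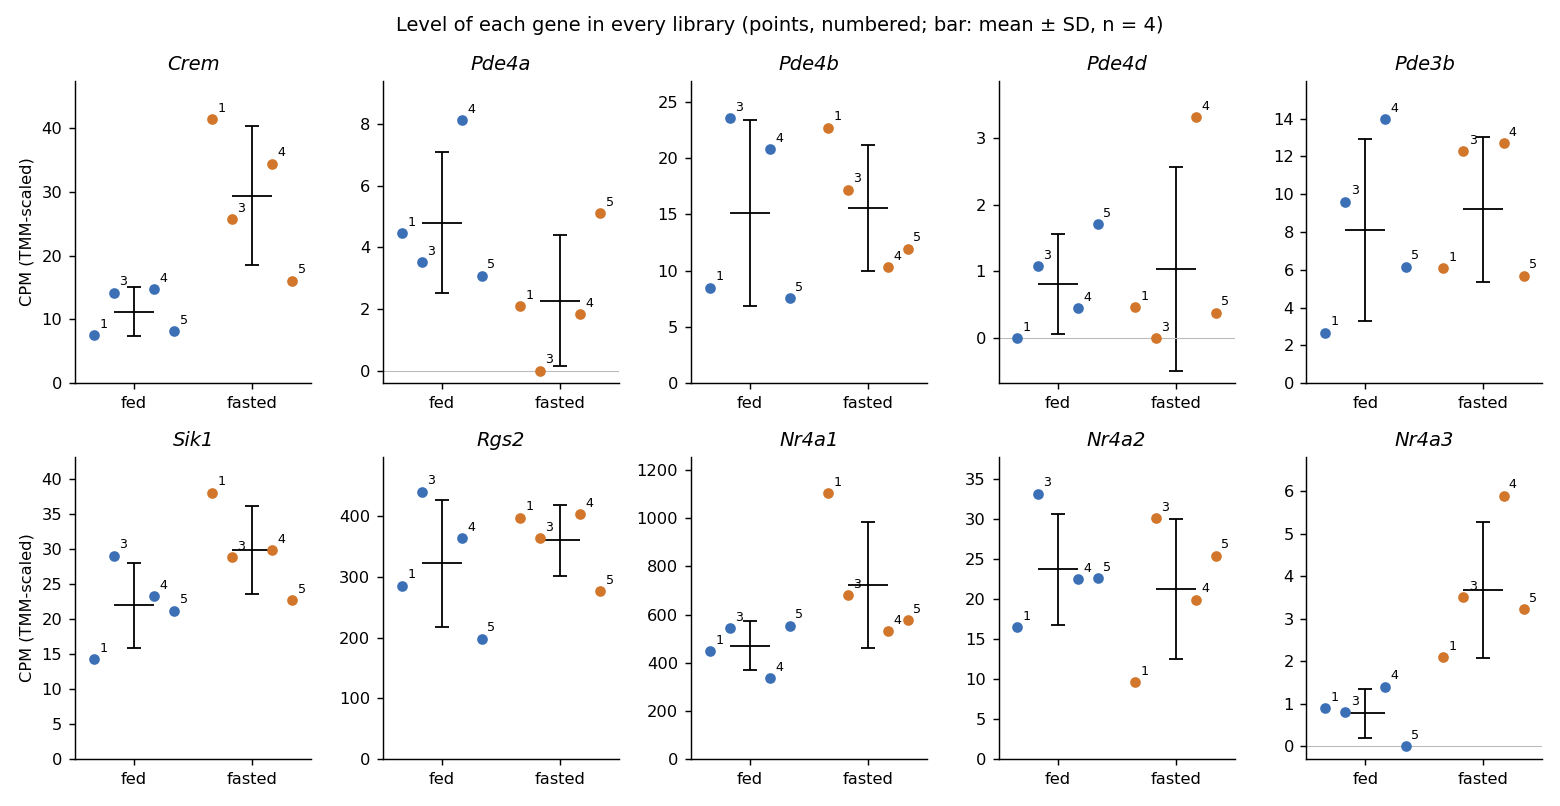
Level of each of the 10 genes in CPM over TMM-scaled library sizes (vertical axes, 1 scale per gene) in fed (blue) and fasted (orange) libraries. Points are libraries with their numbers and bars are the mean ± SD of 4 libraries. The fasted points of Crem and Nr4a3 lie above all fed points, and those of the other genes overlap with fed.

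Crem encodes CREM, and its early repressor form ICER is a classical end product of cAMP signalling. In fed libraries 1, 3, 4 and 5 it stood at 7.58, 14.2, 14.8 and 8.22 CPM. In fasted libraries 1, 3, 4 and 5 it stood at 41.4, 25.8, 34.5 and 16.1 CPM. Every fasted library was above every fed library, although fasted library 5 was close to fed libraries 3 and 4. The means were 11.2 ± 3.82 and 29.4 ± 10.9 CPM (SD, n = 4), a log2 fold change of 1.36 ± 0.37 (SE; edgeR, unadjusted p = 0.0033, Benjamini-Hochberg adjusted p = 0.69). By its unadjusted p it was in place 37 of the 7700 genes. Within same-number pairs the log2 difference was 2.40, 0.84, 1.20 and 0.94 for numbers 1, 3, 4 and 5. Its log2 fold change was 1.16 ± 0.46 without fasted libraries 1 and 3, which were poor in acinar RNA, and 1.18 ± 0.41 with an acinar covariate. The table does not separate ICER from the longer CREM transcripts.

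Marker genes of other cells were set beside this difference, on the same CPM scale. The 6 of 8 listed T cell markers that were in the table summed to 41.0 to 56.9 CPM (fed) and to 66.0 to 81.4 CPM (fasted), without overlap. Most of this sum was Cd3g, a T cell receptor signalling chain, which ran from 29.9 to 40.8 CPM with feeding and from 42.8 to 54.8 CPM with fasting. Lef1, a transcription factor of naive T cells, was at 13.4, 7.04, 7.02 and 11.3 CPM in fed and 30.9, 16.6, 13.1 and 24.8 CPM in fasted libraries 1, 3, 4 and 5. Cd3e was at 0.892, 2.98, 0 and 2.74 CPM and at 7.72, 1.56, 6.27 and 8.15 CPM in the same order. Lef1 overlapped only in that fasted library 4 was below fed library 1, and Cd3e only in fasted library 3. Cd8a was at 0 counts in each fasted library and in fed libraries 1 and 3. Cd3d stood at 1.03 CPM or less in each library, with overlapping groups. Tcf7 stood at 0.685 CPM or less in all but fasted library 4, where it was at 2.58 CPM. Myeloid markers, 10 of 10 in the table, summed to 42.9 to 59.3 CPM in fed libraries. They stood at 29.3 to 44.9 CPM in fasted libraries 3, 4 and 5 and at 211 CPM in fasted library 1, which was also the highest library for Crem, Sik1 and Nr4a1. Most of this sum was Cd74 in each library, at 149 CPM in fasted library 1 and 20.3 to 56.6 CPM in the others. In fasted library 1 C1qb and Csf1r were at 37.7 and 11.7 CPM, while Lyz2 and Itgam were at 0. Islet endocrine markers (8 of 12 in the table) summed to 49.0 to 159 CPM with feeding and 3.28 to 73.7 CPM with fasting. Except in fasted libraries 1 and 3, where Ttr was at 0, most of this sum was Ttr. Ttr ran from 48.2 to 159 CPM in fed libraries and was at 73.0 and 42.8 CPM in fasted libraries 4 and 5. The hormone genes Ins1 and Ins2 were at 9.95 and 14.2 CPM in fasted library 3 and at 5.48 CPM or less elsewhere. Gcg was at 1.03 CPM or less in each library. Ductal, stromal and endothelial markers (8 of 8) summed to 31.2 to 210 CPM with feeding and 3.51 to 100.1 CPM with fasting. Red cell markers (3 of 6) summed to 139 to 708 and 105 to 286 CPM. Mast cell, basophil and eosinophil markers (3 of 8) stayed at 6.08 CPM or less in each library, and NK, ILC1 and ILC3 markers (3 of 8) at 4.93 CPM or less. The 15 ILC2 identity genes summed to 2199 to 3316 CPM (fed) and 2547 to 3152 CPM (fasted). The part of these cells in the levels of the members was not tested.

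Sik1, the salt-inducible kinase that acts on CREB coactivators, stood at 14.3, 29.1, 23.4 and 21.2 CPM in fed libraries 1, 3, 4 and 5. It stood at 38.1, 28.9, 29.9 and 22.7 CPM in fasted libraries 1, 3, 4 and 5. Fasted library 1 was the highest and fed library 1 the lowest, and the other 6 libraries overlapped. The log2 fold change was 0.43 ± 0.29 (SE; edgeR, unadjusted p = 0.16, Benjamini-Hochberg adjusted p = 1.00). Without the acinar-poor fasted libraries it was 0.25 ± 0.39, less than its error. Across the 8 libraries Sik1 was the member most like Crem, with a Pearson correlation of log2 CPM of 0.87, given as a description since these libraries share groups, numbers and acinar content.

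Rgs2, which shortens signalling by G proteins and inhibits some adenylyl cyclases, stood at 286, 441, 365 and 198 CPM in fed libraries 1, 3, 4 and 5. In fasted libraries it stood at 398, 365, 404 and 276 CPM. The fasted libraries all lay within the fed range. The log2 fold change of 0.16 ± 0.26 (SE) was smaller than its error and went to -0.010 without fed library 5.

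Phosphodiesterases split cAMP to AMP, and none of the 4 in the set had fasted libraries that were all above the fed ones. Pde4b, the main PDE4 form of many leukocytes, stood at 8.48, 23.5, 20.8 and 7.54 CPM in fed and at 22.7, 17.2, 10.3 and 11.9 CPM in fasted libraries 1, 3, 4 and 5. Fed libraries 3 and 4 and fasted library 1 were high, and the groups overlapped over most of their range. Its log2 fold change was 0.01 ± 0.43 (SE), and it went to -0.46 ± 0.54 without the acinar-poor fasted libraries. Pde3b, a form that insulin signalling activates in fat cells and hepatocytes, stood at 2.68, 9.61, 14.0 and 6.17 CPM when fed and at 6.08, 12.3, 12.7 and 5.69 CPM when fasted. Its fasted range lay inside its fed range, and its log2 fold change was 0.14 ± 0.51 (SE).

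Pde4a was the tested member with the lowest fold change. It stood at 4.46, 3.52, 8.13 and 3.08 CPM in fed and at 2.11, 0, 1.84 and 5.12 CPM in fasted libraries 1, 3, 4 and 5. Fasted library 5 lay within the fed range and the other fasted libraries below it. The 0 counts of fasted library 3 allow a level of up to 0.585 CPM. The log2 fold change was -1.09 ± 0.85 (SE; edgeR, unadjusted p = 0.22, Benjamini-Hochberg adjusted p = 1.00). It was -0.48 ± 0.71 without the acinar-poor fasted libraries, -0.69 without fasted library 3 and -1.88 without fasted library 5. The values rest on 155 fed and 46 fasted counts in all. Pde4d had 19 fed and 22 fasted counts, 18 of the latter in fasted library 4, and was too low to be compared. It was at 0 counts in fed library 1 and fasted library 3, which allows up to 1.34 and 0.585 CPM there.

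A share of counts among the phosphodiesterases does not depend on the scaling of libraries. 3' end counts are not proportional to transcript length, so shares were not scaled by length, and their intervals are 95% Wilson intervals that cover counting error only. Of the counts of Pde4a, Pde4b, Pde4d and Pde3b together, Pde4b took 51.3% ± 9.20 (SD, n = 4) with feeding and 54.7% ± 14.9 with fasting. Pde3b took 27.0% ± 7.47 and 32.7% ± 12.6, and Pde4a 18.3% ± 7.94 and 8.85% ± 9.39. The differences for Pde4b and Pde3b were smaller than the SD of the fasted libraries, and that for Pde4a was about as large as it. Pde4a ran from 0 to 22.1% of these counts in fasted and from 9.32% to 28.6% in fed libraries, so its groups overlapped.

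**Figure D2:**
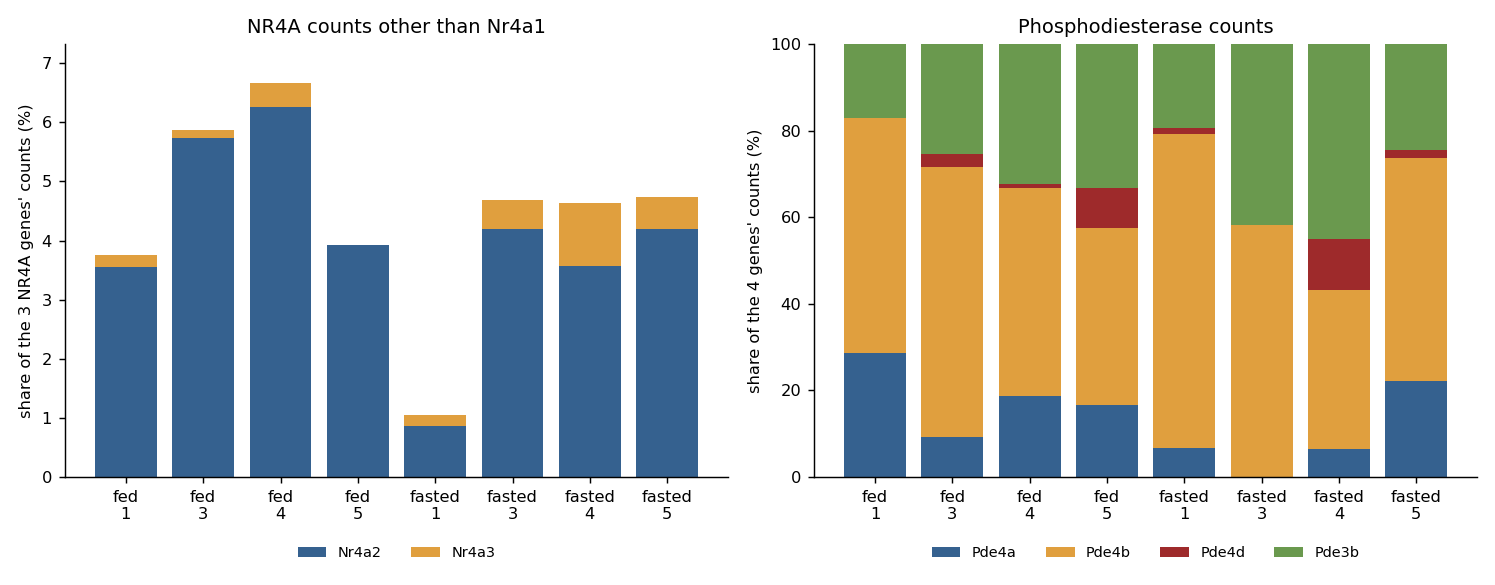
Stacked bars give, for each library on the horizontal axis, the share of counts in % taken by Nr4a2 and Nr4a3 among the 3 NR4A genes (left; the remainder is Nr4a1) and by each of 4 phosphodiesterase genes among their sum (right). The Nr4a3 segment runs from 0.19% to 1.06% in fasted libraries and from 0 to 0.39% in fed libraries.

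The NR4A genes follow in turn, and differences between them were not tested. Nr4a1 is also called Nur77. It stood at 447, 544, 335 and 554 CPM in fed libraries 1, 3, 4 and 5. It stood at 1103, 682, 532 and 576 CPM in fasted libraries 1, 3, 4 and 5. Fasted library 1 was far above the others, and fasted library 4 lay within the fed range. Within same-number pairs the fasted library was higher in 4 of 4, by log2 differences of 1.30, 0.32, 0.67 and 0.057 for numbers 1, 3, 4 and 5. The means were 470 ± 102 and 723 ± 261 CPM (SD, n = 4), a log2 fold change of 0.62 ± 0.27 (SE; edgeR, unadjusted p = 0.043, Benjamini-Hochberg adjusted p = 1.00).

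The Nr4a1 difference moved with the acinar-poor libraries. Without fasted library 1 its log2 fold change was 0.34, and without fasted libraries 1 and 3 it was 0.23 ± 0.32 (SE; unadjusted p = 0.48, edgeR). With the acinar covariate it was 0.28 ± 0.27. The mean of fasted libraries 1 and 3 was 893 CPM, against 554 CPM in fasted libraries 4 and 5 and 470 CPM in the fed group. For Crem the same means were 33.6, 25.3 and 11.2 CPM, so the acinar-rich fasted libraries stood 2.26 times above fed for Crem and 1.18 times for Nr4a1. Whether acinar RNA accounts for the Nr4a1 difference was not tested beyond these values.

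**Figure D3:**
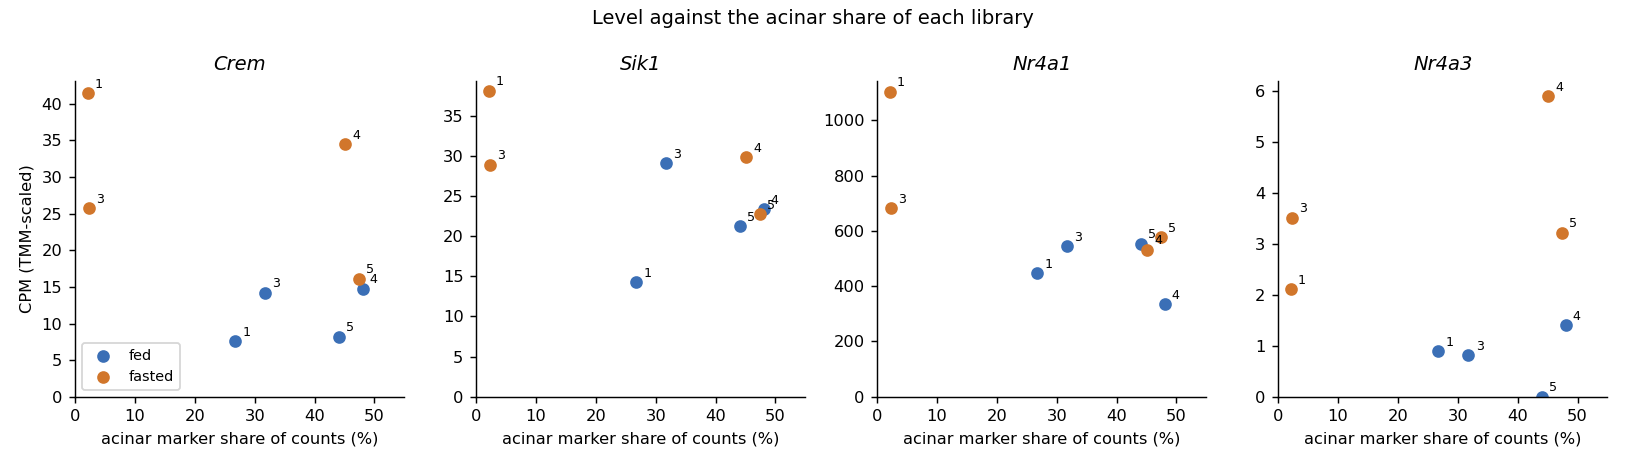
Level in CPM over TMM-scaled library sizes (vertical axes) of Crem, Sik1, Nr4a1 and Nr4a3 against the share of a library's counts in acinar marker genes in % (horizontal axes) for fed (blue) and fasted (orange) libraries, numbered. At acinar shares of 44.0% and above, the fasted libraries of Crem and Nr4a3 lie above the fed ones, whereas for Nr4a1 and Sik1 1 of the fasted libraries lies between the fed ones.

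Nr4a2, or Nurr1, stood at 16.5, 33.2, 22.5 and 22.6 CPM in fed and at 9.59, 30.1, 19.9 and 25.4 CPM in fasted libraries 1, 3, 4 and 5. Fasted library 1, the highest for Nr4a1, was the lowest for Nr4a2. The log2 fold change was -0.16 ± 0.37 (SE; edgeR, unadjusted p = 0.67), within the spread between libraries. In fasted library 1 Nr4a2 took 0.86% of the counts of the 3 NR4A genes (Wilson interval 0.635% to 1.17%), against 3.57% to 4.20% in the other fasted and 3.56% to 6.27% in the fed libraries.

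Nr4a3, or NOR1, was the rarest NR4A gene by counts, with 27 counts in fed and 76 in fasted libraries. It stood at 0.892, 0.812, 1.40 and 0 CPM in fed libraries 1, 3, 4 and 5. It stood at 2.11, 3.51, 5.90 and 3.22 CPM in fasted libraries 1, 3, 4 and 5. Every fasted library was above every fed library, and the 0 counts of fed library 5 allow up to 1.03 CPM. The means were 0.777 ± 0.581 and 3.68 ± 1.60 CPM (SD, n = 4). Tested without a filter on low counts, its log2 fold change was 2.12 ± 0.94 (SE; edgeR, unadjusted p = 0.031, Benjamini-Hochberg adjusted p = 0.68). Under that setting 919 of 15661 genes had an unadjusted p under 0.05 in edgeR. Its groups did not overlap, but 3 of the 4 fed libraries rested on 6 counts or fewer. The share of 2.21% without overlap covers tested genes only. No such share was counted among genes below the filter, where Nr4a3 belongs.

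**Figure D4:**
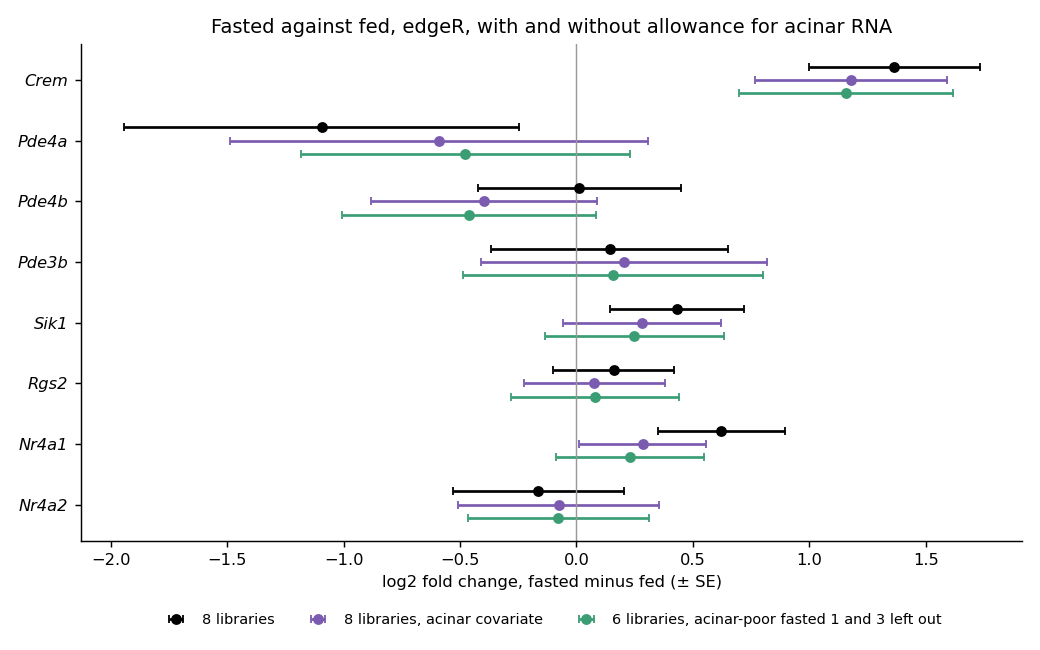
Log2 fold change, fasted minus fed, with its SE (horizontal axis) for the 8 tested members (vertical axis) from edgeR with all 8 libraries (black), with a covariate for acinar RNA (purple) and without acinar-poor fasted libraries 1 and 3 (green). Crem stays between 1.16 and 1.36, while Nr4a1 goes from 0.62 to 0.23 and Pde4b from 0.01 to -0.46.

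By log2 CPM over the 8 libraries, the tested genes most like Crem were Dctn6, a dynactin subunit (Pearson r = 0.99), and Tnfaip3, which encodes the NF-kappaB inhibitor A20 (0.97). Those most like Nr4a1 were Zc3h12a, the RNase Regnase-1 (0.98), and Frmd8 (0.97). For Sik1 they were Tap2 (0.97) and Car3 (0.96), for Rgs2 1810013L24Rik (0.98) and Gna13 (0.98), and for Nr4a2 Ube4a (0.96) and Yaf2 (0.94). For Pde4a they were Dpp7 (0.97) and Rpn1 (0.96), for Pde4b Sh3pxd2a (0.96) and Ppp2ca (0.95), and for Pde3b Sparc (0.98) and Npepps (0.98). They were picked as the highest of 7699 other genes over 8 points, so their size is a description of likeness only. Among the members themselves r ran from -0.51 (Pde4a with Nr4a1) to 0.87 (Crem with Sik1), and Nr4a1 with Nr4a2 was at -0.48.

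The rest of the pathway was read from lists of genes by role, none of whose tested genes passed the adjusted threshold. Of 10 tested receptors that couple to Gs or modify such receptors, 6 had positive and 4 negative fold changes, with a median of 0.30. The smallest p was that of Ramp3, a partner protein of calcitonin family receptors, with means of 15.4 ± 4.17 (fed) and 42.8 ± 32.7 CPM (fasted, SD) and overlapping groups. The prostaglandin E receptor gene Ptger2 was at a log2 fold change of 1.32 ± 0.61 (SE), and Vipr2, a receptor gene for the peptide VIP, at -1.34 ± 0.73. Of 7 G proteins and adenylyl cyclases 3 were positive and 4 negative, with a median of -0.09. Adcy7, an adenylyl cyclase of blood cells, had means of 39.2 ± 4.09 (fed) and 56.1 ± 6.47 CPM (fasted, SD) without overlap and a log2 fold change of 0.51 ± 0.21 (SE; edgeR, unadjusted p = 0.033). Adcy9 was at -1.17 ± 0.65 and Gnb1 at 0.18 ± 0.21.

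Protein kinase A, EPAC and anchoring genes, 10 tested, had 6 positive and 4 negative members and a median of 0.05. Its subunit genes Prkar1a, Prkacb and Prkaca had log2 fold changes of 0.33 ± 0.21, 0.51 ± 0.34 and 0.25 ± 0.28 (SE). CREB, its coactivators and the other SIK kinases, 10 tested with Crem among them, had 7 positive and 3 negative members and a median of 0.26. The coactivator genes Crtc1 and Crebbp were at 0.68 ± 0.43 and -0.80 ± 0.69. Of 5 other phosphodiesterases 1 was positive and 4 negative, with a median of -0.48. Pde2a, a form that cyclic GMP stimulates, had means of 4.65 ± 1.04 (fed) and 1.40 ± 1.03 CPM (fasted, SD) without overlap and a log2 fold change of -1.72 ± 0.78 (SE; edgeR, unadjusted p = 0.051). Pde1b and Pde12 were at -1.51 ± 1.43 and -0.48 ± 0.66. Of 7 other RGS proteins 5 were positive and 2 negative, with a median of 0.28, and Rgs3, Rgs11 and Rgs1 were at 0.96 ± 0.68, -1.39 ± 1.12 and 0.50 ± 0.44.

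Other genes that CREB can drive had 12 positive and 6 negative members of 18 tested, with a median of 0.26 against 0.00 over all tested genes. At an unadjusted p under 0.05 there were 5 of the 18, all positive, against 4.39% of all tested genes in either direction. The same count was 2 of 11 calcium, NFAT and EGR genes and 2 of 22 dissociation and early stress genes, all positive. It was 1 of 10 Gs receptor genes, 1 of 7 G proteins and cyclases and 1 of 10 in the CREB list (Crem), also positive. It was 0 for protein kinase A, other phosphodiesterases and other RGS proteins. The lists were chosen with earlier results of these data known. Per1, Fosl2 and Irs2, a clock repressor, an AP-1 member and an insulin receptor substrate, had log2 fold changes of 1.13 ± 0.28, 0.82 ± 0.27 and 0.97 ± 0.32 (SE). Lists may share genes, as Egr1 below is in 2 of them. Calcium, NFAT and EGR genes had 7 positive and 4 negative members of 11, with a median of 0.09. The activation marker gene Cd69 and the immediate early gene Egr1 were at 0.66 ± 0.24 and 0.74 ± 0.30, and Tox at 0.66 ± 0.56. Genes induced by cell dissociation and early stress, 22 tested, had 9 positive and 13 negative members, with a median of -0.08. In that list Egr1, Btg1 and Hsph1 had the smallest p, with Btg1 at 0.50 ± 0.20 and Hsph1 at -1.48 ± 0.69.

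**Figure D5:**
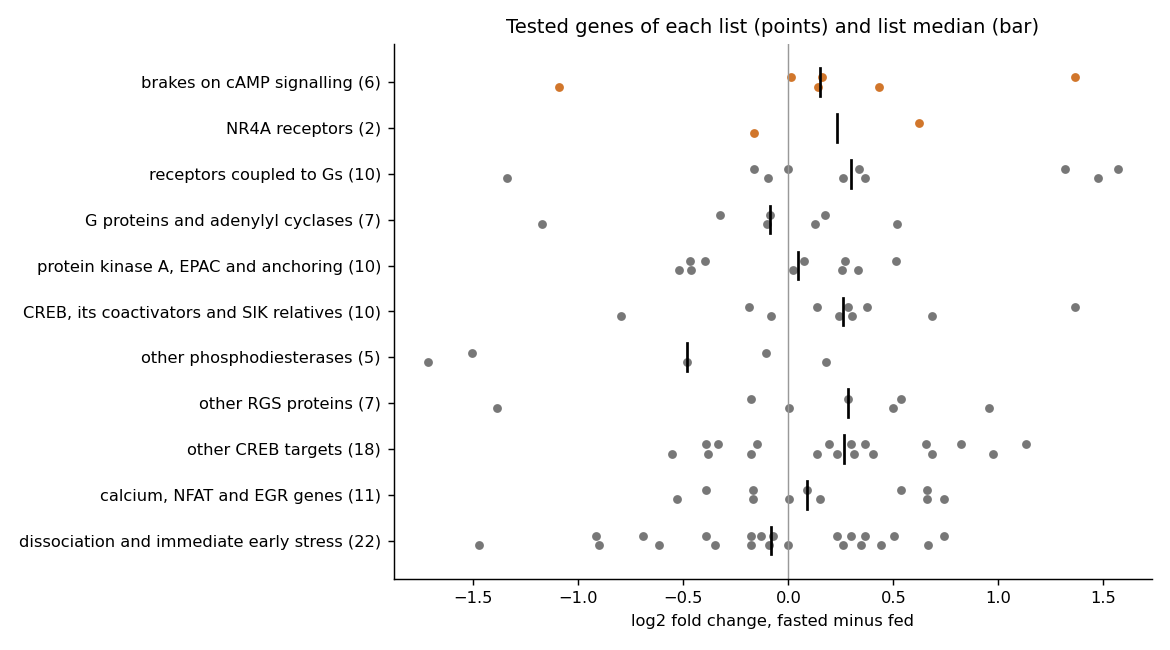
Log2 fold change, fasted minus fed (horizontal axis), of each tested gene (points) in the 2 member groups (orange) and 9 other lists (grey), with the number tested in brackets and the list median as a bar. Crem at 1.36 is the highest member, and the median of the other phosphodiesterases lies at -0.48.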

How the data were processed

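The authors deposited a table of raw counts, whole numbers for each gene and library. STAR, edgeR and the mm10 build are named in the submitters' processing notes. Versions, the counting step and whether reads or molecular identifiers were counted are not given in the sources used here. CEL-seq2 with Trizol extraction is stated per the labels' protocols. The 4 sequencing files hold barcoded libraries of both treatments, so groups were read from the column names. The table's columns outnumber the files in each treatment. The 2 columns of per-library values numbered 2, of control and fasting, were not used. After 11 spike-in rows with 20 counts were left out, 15835 genes remained.

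Genes were tested in edgeR 4.0.16 (R 4.3.3): filterByExpr by group, TMM factors, robust quasi-likelihood test, fasted against fed without covariates, two-sided p-values, Benjamini-Hochberg adjustment and a threshold of 0.05. The SE was the log2 fold change divided by the square root of F. The script was tested on simulated data. Log2 CPM used a prior count of 2. Deviations from the group means correlated between fed and fasted libraries of like number (0.23, 0.14, 0.50 and 0.13). Each fed library correlated most with the fasted library of its own number. For fasted libraries 3 and 5 a fed library of unlike number was higher, at 0.20 (fed 1, fasted 3) and 0.22 (fed 4, fasted 5). Unlike numbers ran from -0.40 to 0.22, and what a number stands for is not stated. Whether the numbers pair the libraries is thus not settled. Same-number differences are given as a description, and the main test did not use them. No libraries of a group agreed within counting noise. Motifs were searched in RefSeq promoter windows. Named were all members, the 3 genes of smallest p in each list, and the 2 genes most like each tested member. The members, lists, rules and alternatives were chosen with earlier results of these data known. Alternatives were other scalings and filters, DESeq2 1.42.0, limma-voom (limma 3.58.1) with quality weights, a replicate block, leaving out libraries, removing or modelling acinar RNA, and thinning to 1797504 counts. The level of the B cell marker list is not reported here.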

Additional observations from a re-analysis of the deposited data

Results flagged for a closer look

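Each member was examined in each group for a library far from the others, by the gap to its nearest neighbour over the group's range, which chance exceeds in about 1 of 20 groups; of the 20 groups 1 was marked. Pde4d stood at 3.32 CPM in fasted library 4, with a gap of 0.859 of the range. This rests on 18 counts there against 2 or fewer in each other fasted library.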

How the results depend on the processing

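Over 20 alternatives Crem kept a positive log2 fold change, from 1.16 without the acinar-poor fasted libraries to 2.05 with library totals only, with an unadjusted p from 0.0010 to 0.029 and an adjusted p from 0.19 (DESeq2) to 1.00. With library totals only the median of all tested genes was at 0.51, a shift that raises every value under that setting. Nr4a1 ran from 0.23 to 1.28 and Sik1 from 0.24 to 1.06, both positive in each of the 20, and Pde4a was negative in each of 19, from -2.56 with limma-voom to -0.48. Nr4a3 gave no range to read, since where it passed a filter on low counts it did so through the fasted libraries. The sign changed for members near 0. Pde4b was at 0.00 with DESeq2 size factors in edgeR (-0.0026) and with DESeq2 (-0.0022), at -0.042 with limma-voom, at -0.40 with the acinar covariate and at -0.46 without the acinar-poor fasted libraries. With 1 library left out it ran from -0.22 to 0.30, Pde3b from -0.12 to 0.54, Rgs2 from -0.010 to 0.34 and Nr4a2 from -0.38 to 0.075, and Nr4a2 was at 0.26 with library totals only. With the replicate block 0 genes were called and Crem, Nr4a1 and Sik1 were at 1.34, 0.59 and 0.44, so blocking by number changed no member's call. Over all genes edgeR called 0, and 17 with DESeq2, 1 with library totals only and 1 without a filter on low counts; none of these was a member. Counts of Pde4d, Nr4a3 and Pde4a limit what can be read from them.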
